A study of Mus musculus with 7 samples.

Results

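The mitochondrial carrier family (solute carrier family 25) with the uncoupling proteins Ucp2 and Ucp3 was described in mouse left ventricle. Members were all rows of the deposited gene-level count table whose Ensembl identifier maps to a mouse symbol that starts with Slc25a, plus Ucp2 and Ucp3. This gave 49 of 22027 listed genes. Of these, 41 had a mean of at least 1 CPM (counts relative to library size, which was scaled here by the trimmed mean of M-values) over all libraries, and all 41 were tested. The threshold fell between Slc25a53, with a mean of 1.53 CPM, and Slc25a31, with a mean of 0.50 CPM. Both groups were 12-month-old mice of strain C57BL/6J that the labels call G3, the study's telomerase-deficient mice. The 4 libraries labelled G3 carried no further label, and the 3 libraries labelled G3 PGC1aOE came from such mice in which PGC1alpha, a coactivator of mitochondrial genes, is said to be overexpressed. Neither the driver of the overexpression nor the disrupted telomerase gene is named in these sources, and the labels give each library its own code number without saying what it counts or whether each is a separate animal, so the spread behind each p-value is only that among these 7 libraries and may be technical. For 3 libraries (G3 1, G3 3 and G3 PGC1aOE 1) the sample code contains G2, for the remainder it contains G3, and its meaning is not explained.

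Mitochondrial carriers are small proteins of the inner mitochondrial membrane that exchange nucleotides, phosphate, acids, amino acids and cofactors between the cytosol and the matrix. In heart muscle the adenine nucleotide carrier brings ADP in and ATP out, and the phosphate carrier supplies the other substrate of ATP synthase. The carnitine/acylcarnitine carrier brings in the fatty acyl groups that the heart burns, and the uncoupling proteins are relatives of these carriers.

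The message of PGC1alpha did not separate the groups. Ppargc1a stood at 94.7, 56.8, 118 and 86.7 CPM in G3 1 to 4 and at 103, 43.9 and 58.1 CPM in G3 PGC1aOE 1 to 3, a log2 fold change of −0.38 ± 0.34 (SE; edgeR quasi-likelihood test, adjusted p = 0.847). The measured message thus goes against the label, and every direction below rests on the label alone. Total counts ran from 10106705 to 16056740 per library. Mitochondrially encoded genes took 24.7% to 34.5% of counts in G3 and 27.7% to 42.4% in the libraries labelled G3 PGC1aOE. All 6 cardiomyocyte markers were detected, with a summed level from 34521 to 51222 CPM. Of 6 fibroblast markers, all detected, 5 had higher fitted values in the libraries labelled G3 PGC1aOE, and their sum ran from 465 to 932 CPM in G3 and from 835 to 1363 CPM in the others. Schwann cell markers summed to 4.57 to 8.20 CPM in G3 and 11.7 to 18.4 CPM in the others, with no overlap. Of these 4 markers of low level 3 were tested, all with higher fitted values, and 0 passed adjustment. Among all single genes tested, 4.58% did not overlap between the groups in either direction. The part of either cell type in the carrier levels was not tested. Levels within bulk tissue do not tell fewer cells of a type from less RNA per cell.

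Promoter sequences are shown for 2 pairs of carriers, the adenine nucleotide carriers Slc25a4 and Slc25a5 and the acylcarnitine carrier Slc25a20 with its relative Slc25a29. Each is the stretch from 250 bases before to 50 bases after the annotated start, from RefSeq on GRCm38.p6, written 5′ to 3′ on the gene's strand. Capitals mark CCAAT and GGGCGG, or their reverse complements ATTGG and CCGCCC. Slc25a4 lies at chr8:46211013-46211312 on the minus strand, Slc25a5 at chrX:36795347-36795646 on the plus strand, Slc25a20 at chr9:108661886-108662185 on the plus strand and Slc25a29 at chr12:108835827-108836126 on the minus strand.
Slc25a4: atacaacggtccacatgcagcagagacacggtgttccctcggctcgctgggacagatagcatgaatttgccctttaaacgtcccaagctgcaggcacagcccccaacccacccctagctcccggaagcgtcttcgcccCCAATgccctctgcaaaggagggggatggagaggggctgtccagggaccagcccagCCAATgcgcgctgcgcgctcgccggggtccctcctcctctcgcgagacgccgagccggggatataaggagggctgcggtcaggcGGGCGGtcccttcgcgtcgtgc
Slc25a5: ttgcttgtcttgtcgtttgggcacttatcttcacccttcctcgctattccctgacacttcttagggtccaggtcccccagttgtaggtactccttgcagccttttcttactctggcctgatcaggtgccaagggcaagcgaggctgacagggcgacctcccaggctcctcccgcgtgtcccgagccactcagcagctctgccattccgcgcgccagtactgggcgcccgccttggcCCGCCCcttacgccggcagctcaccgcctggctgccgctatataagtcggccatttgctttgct
Slc25a20: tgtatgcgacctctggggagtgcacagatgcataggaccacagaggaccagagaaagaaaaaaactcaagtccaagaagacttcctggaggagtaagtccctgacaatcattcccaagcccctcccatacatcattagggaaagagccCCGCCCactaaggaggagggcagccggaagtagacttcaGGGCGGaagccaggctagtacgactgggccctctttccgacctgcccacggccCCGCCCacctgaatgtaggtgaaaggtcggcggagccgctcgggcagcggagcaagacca
Slc25a29: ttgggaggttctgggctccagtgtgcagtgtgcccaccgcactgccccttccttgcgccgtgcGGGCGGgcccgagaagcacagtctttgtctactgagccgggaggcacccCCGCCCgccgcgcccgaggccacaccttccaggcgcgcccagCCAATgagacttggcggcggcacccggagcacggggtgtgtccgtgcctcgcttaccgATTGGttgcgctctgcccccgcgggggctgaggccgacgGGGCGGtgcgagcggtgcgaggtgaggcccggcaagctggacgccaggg
Slc25a4 and Slc25a29 hold CCAAT and the other two do not, while GGGCGG is present in each of the 4 windows. A promoter was found for 32 of the 41 expressed members. GGGCGG was present on either strand in 28 of these 32 (87.5%), against 38.2% of all 27025 genes in the promoter table. CCAAT was present in 18 of 32 (56.25%) against 41.1% of all genes. The sequence TATAAA was present in 0 of 32, against 15.7% of all genes. The letters TCAAGGTCA, an extended binding sequence of the ERR nuclear receptors through which PGC1alpha acts, were present in 0 of 32, against 0.47% of all genes, and the palindromic NRF1 site in 0 of 32, against 0.69%. The motifs were searched on both strands, none of the 5 contains another, and a match or its absence describes only these windows. The 32 were chosen by expression and the 27025 genes were not, so the shares do not compare carriers with other expressed genes.

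Adenine nucleotide and phosphate carriers dominated the family. Levels between genes are compared as FPKM, which divides by gene length. Slc25a4, the heart and muscle adenine nucleotide carrier, held 63.2% ± 3.84 (SD, n = 7) of the summed FPKM of all 49 members. Slc25a3, the phosphate carrier, held 13.1% ± 1.58, Slc25a11, the oxoglutarate carrier of the malate-aspartate shuttle, 7.41% ± 0.92, and Slc25a5, the widely expressed adenine nucleotide carrier, 3.99% ± 0.51. These 4 genes together held 87.7% ± 1.48. By mean FPKM Slc25a4 ranked 24 among all listed genes, below 23 genes of which 13 are mitochondrially encoded.

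**Figure D1:**
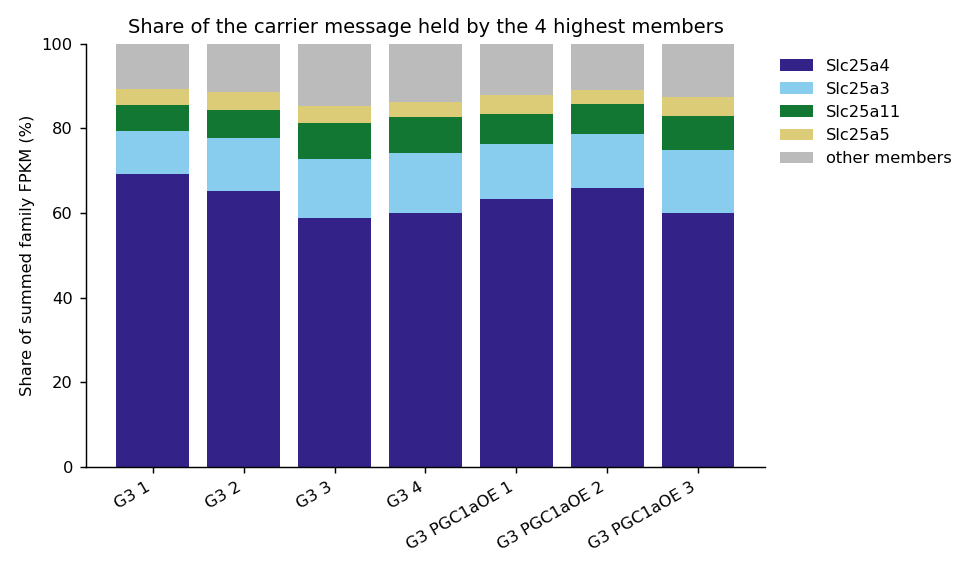
Share of the summed FPKM of the family (vertical axis, %) held by the 4 highest members and by all others in each of the 7 libraries (horizontal axis). Slc25a4 takes between 58.8% (G3 3) and 69.2% (G3 1) of the bar.

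By the deposited lengths, the order of these 4 genes was Slc25a4 above Slc25a3 above Slc25a11 above Slc25a5 in 7 of 7 libraries. Slc25a5 stood above Slc25a12 in 7 of 7. From Slc25a12 down, most neighbours in the order changed places between libraries. Of these 36 pairs, 28 kept the order of their means in 5 or fewer of the 7 libraries, such as Slc25a12 over Slc25a20 in 3 and Slc25a39 over Ucp2 in 4. Another 6 pairs kept it in 6 of 7, among them Slc25a20 over Slc25a39 and Slc25a34 over Slc25a13, and 2 in 7 of 7, Slc25a23 over Slc25a51 and Slc25a14 over Slc25a53. In all, 5 members had a mean of at least 100 FPKM and 22 of at least 10 FPKM, and the lowest of the 41 expressed members, Slc25a53, had a mean of 0.90 FPKM.

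**Figure D2:**
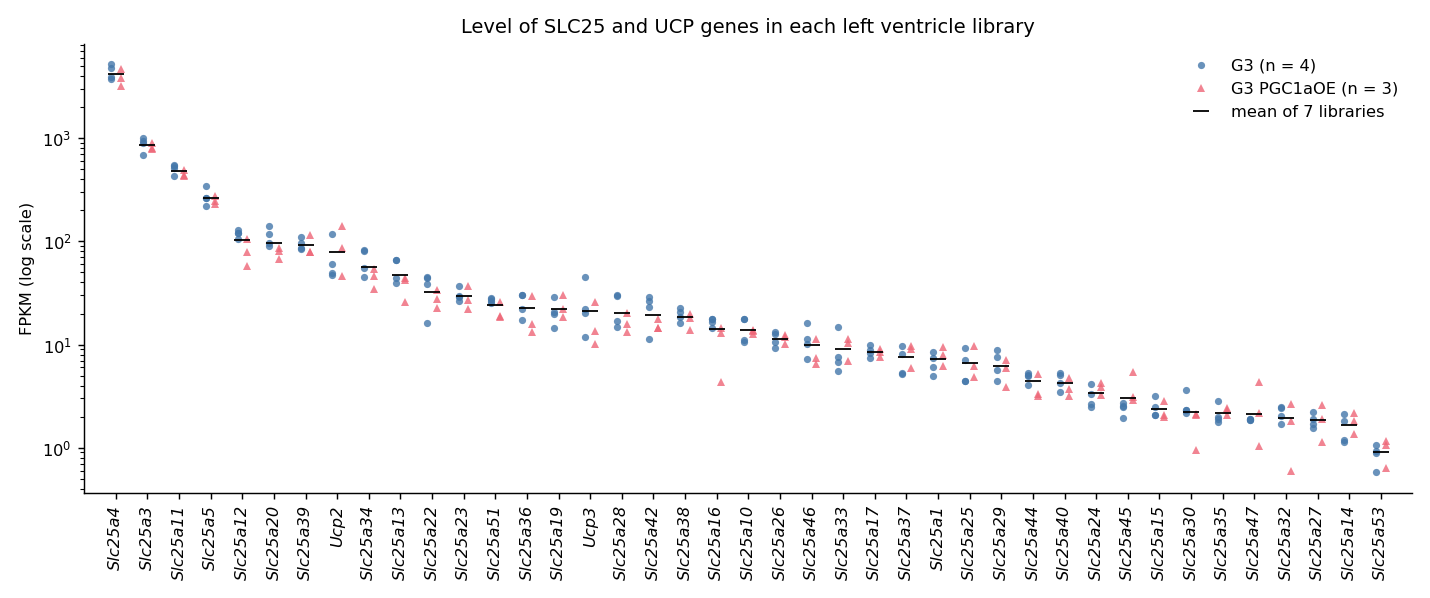
FPKM on a log scale (vertical axis) of the 41 members with a mean of at least 1 CPM (horizontal axis, ordered by mean), with a circle for each G3 library, a triangle for each library labelled G3 PGC1aOE and a dash for the mean of the 7. Levels run from a mean of 4209 FPKM for Slc25a4 to 0.90 FPKM for Slc25a53, and circles and triangles overlap for most genes.

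No member passed the threshold between the groups. In edgeR 0 of 41 members had an adjusted p under 0.05, and 0% of all 12674 tested genes did (DESeq2 called 3 genes and 0 members). At an unadjusted p under 0.05 stood 1 of 41 members, Slc25a45, against 4.32% of all tested genes (3.05% higher and 1.27% lower). Fitted values were lower in the libraries labelled G3 PGC1aOE for 21 members and higher for 20, against 49.1% lower over all tested genes. The median log2 fold change was −0.01 over the members and 0.0076 over all tested genes. Single members ranged from −0.56 (Slc25a16) to 0.80 (Slc25a45), with SEs from 0.19 to 0.51.

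A missed threshold does not show that levels were alike, so intervals are given. For 26 of the 41 members the 95% interval lay within a 2-fold change in both directions, and for 15 it reached beyond. The CPM of the groups did not overlap for 2 members, Slc25a12 and Slc25a51, both lower in the libraries labelled G3 PGC1aOE, against 2.39% of all tested genes lower in this way. For 0 members were all those libraries higher, against 2.19%, so 2 of 41 stand against 4.58% in either direction. On the FPKM scale, which divides by the raw column total, these 2 members overlapped. There Slc25a20 and Slc25a30 were separated on the lower side (2.42% of tested genes) and Slc25a45 on the higher side (1.36%).

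**Figure D3:**
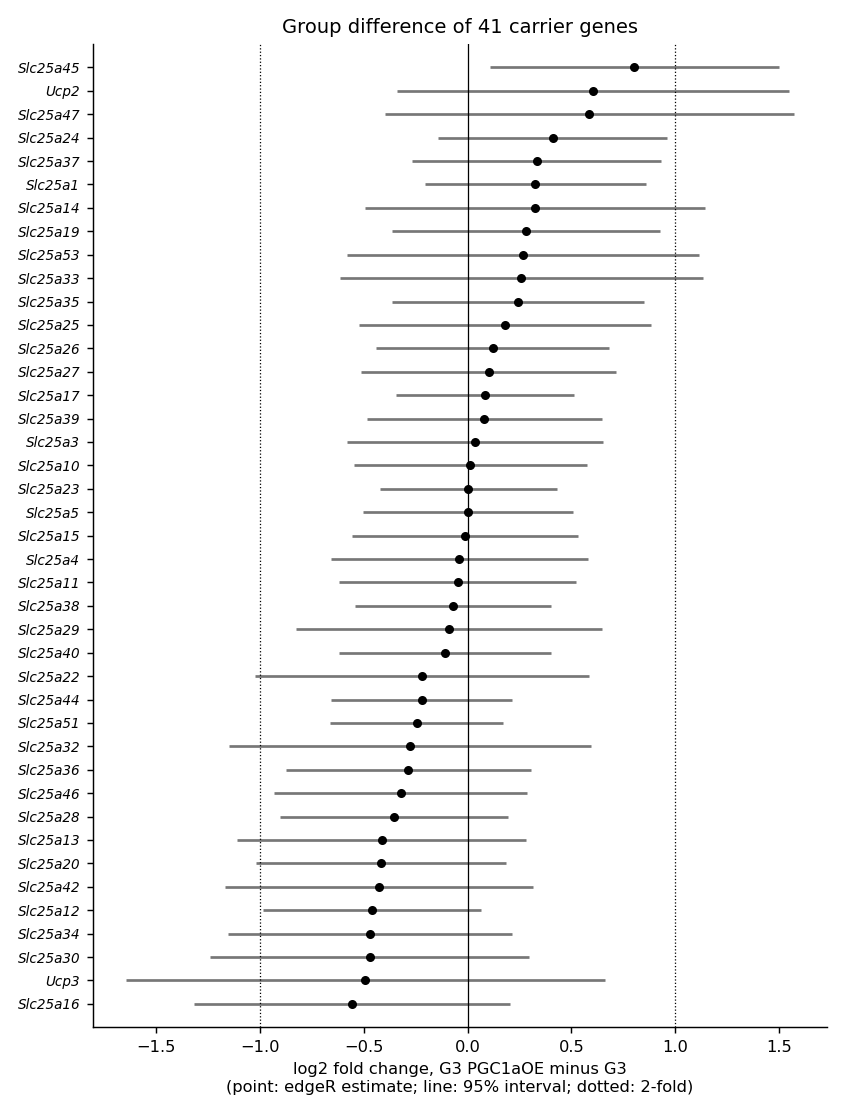
Log2 fold change of the libraries labelled G3 PGC1aOE minus G3 (horizontal axis) for the 41 members (vertical axis), with the edgeR estimate as a point and its 95% interval as a line. The interval of Slc25a45, whose lower bound is 0.11, leaves out 0 without adjustment, and the dotted lines mark a 2-fold change.

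Among the adenine nucleotide carriers, Slc25a4 (ENSMUSG00000031633) measured 7044, 7409, 6042 and 6664 CPM in G3 1 to 4 and 5549.9, 8146 and 6132 CPM in G3 PGC1aOE 1 to 3. The highest and the lowest library both belong to the overexpression label, so the groups overlapped throughout. Its fitted difference was −0.04 ± 0.28 (SE; edgeR, 95% interval −0.66 to 0.58, adjusted p = 0.977).

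Slc25a5 (ENSMUSG00000016319) measured 244, 303, 264 and 236 CPM against 245, 251 and 290.1 CPM. It was among the steadiest members, with a coefficient of variation of 9.67% over the 7 libraries, and its log2 fold change was 0.0031 ± 0.23 (SE; interval −0.50 to 0.51). Both genes resemble each other and have processed copies in the genome, and how the authors assigned reads that match several places is not given in the sources used here. Slc25a31, the adenine nucleotide carrier of germ cells, had 3, 3, 3 and 26 counts in G3 1 to 4 and 4, 5 and 1 in the others, and was not tested.

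Within each library the FPKM of Slc25a4 was 13.2 to 20.2 times that of Slc25a5. The log2 ratio of Slc25a5 to Slc25a4 was −4.17, −3.93, −3.84 and −4.14 in G3 and −3.82, −4.34 and −3.72 in the libraries labelled G3 PGC1aOE. The group difference of 0.06 was smaller than the spread within either group (exact permutation test over 35 splits, two-sided, p = 0.771, adjusted p = 0.8 over the 5 ratios tested; smallest possible p 0.0286).

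Slc25a3 (ENSMUSG00000061904), which imports phosphate, measured 959, 1333, 1349 and 1483 CPM in G3 and 1049.9, 1472 and 1421 CPM in the other group. The lowest library of each group was its replicate 1, and the groups overlapped. On the log2 scale the difference was 0.04 ± 0.28 (SE; interval −0.58 to 0.65).

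Of the acylcarnitine carriers, Slc25a20 (ENSMUSG00000032602), which exchanges acylcarnitine for carnitine, measured 147, 153, 255 and 225 CPM in G3 and 139, 130.5 and 169 CPM in the libraries labelled G3 PGC1aOE. G3 3 and G3 4 stood highest, while G3 1 and G3 2 lay within the range of the other group. This gave a log2 difference of −0.42 ± 0.27 (SE; edgeR, interval −1.02 to 0.18, adjusted p = 0.847), and it was −0.28 without G3 3. In FPKM, where the groups did not overlap, the values were 89.7, 96.5, 142 and 119 against 86.7, 67.6 and 80.2.

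Slc25a29, first named for likeness to the acylcarnitine carrier and known as a carrier of basic amino acids, was far lower. It measured 4.38, 8.50, 8.07 and 6.46 CPM in G3 and 3.73, 8.15 and 7.44 CPM in the other group, with the lowest library again replicate 1 of each. The gene's log2 difference was −0.09 ± 0.33 (SE), and it was 0.18 without G3 PGC1aOE 1. Slc25a20 exceeded it by 9.63 to 22.4 times in FPKM, and the log2 ratio of Slc25a29 to Slc25a20 differed between the groups by 0.26 (exact permutation p = 0.514, adjusted p = 0.8).

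Among the 41 expressed members, Ucp2 and Ucp3 were with Slc25a47 the 3 of largest coefficient of variation over the libraries. Ucp2 (ENSMUSG00000033685), which is also expressed by immune cells, measured 55.3, 126, 57.8 and 76.7 CPM in G3 and 50.5, 186 and 123 CPM in the libraries labelled G3 PGC1aOE. G3 2 and G3 PGC1aOE 2 and 3 stood high and the others low, so the groups overlapped. The fold change on the log2 scale was 0.61 ± 0.43 (SE; interval −0.34 to 1.55). It was 0.14 without G3 PGC1aOE 2, 0.97 without G3 PGC1aOE 1, 0.93 without G3 2, and 0.14 once the number in the sample code (under 80, or 80 and over) entered the fit. The codes of 80 and over were those of G3 4, G3 PGC1aOE 2 and G3 PGC1aOE 3.

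Markers of other cells were present in the same libraries. The 5 macrophage markers, all detected, summed to 460.2, 424, 212 and 189 CPM in G3 and to 359, 441 and 449 CPM in the other group. The 5 adipocyte markers, of which Ucp1 was at 0 counts in every library, summed to 419, 473, 548 and 693 CPM against 431, 1282 and 834 CPM, nearly all of it Fabp4, which is also expressed outside fat. All 4 tested adipocyte markers had higher fitted values in the libraries labelled G3 PGC1aOE (median log2 fold change 1.64), and 0 passed adjustment. The 3 smooth muscle markers, all with higher fitted values (median 1.10), summed to 67.1, 186, 101 and 109 CPM in G3 and 51.2, 387 and 255 CPM in the others. As for Ucp2, G3 2 and G3 PGC1aOE 2 and 3 stood highest. T, NK and B cell markers summed to 8.34 to 13.8 CPM against 12.5 to 17.0 CPM, and endothelial markers to 396 to 549 CPM against 403 to 701 CPM. The part of these cells in the level of Ucp2 was not tested.

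Ucp3 (ENSMUSG00000032942), the uncoupling protein of striated muscle, measured 20.2, 33.5, 41.9 and 88.5 CPM in G3 and 16.9, 51.7 and 29.6 CPM in the other group. Ucp3 had the largest coefficient of variation of the 41 expressed members, 60.4%, and G3 4 alone was above all others. The log2 fold change of −0.49 ± 0.51 (SE) became 0.04 without G3 4 and −0.99 without G3 PGC1aOE 2. With the code number in the fit it was −1.01 ± 0.31 (SE; edgeR, unadjusted p = 0.00616, adjusted p = 1.0), and Ucp3 was then the 1 member under an unadjusted p of 0.05. The log2 ratio of Ucp2 to Ucp3 was 2.08, 2.54, 1.09 and 0.42 in G3 and 2.21, 2.48 and 2.69 in the other group, a difference of 0.92 (exact permutation p = 0.2, adjusted p = 0.643), which fell to 0.55 without G3 4. The relatives Slc25a14, Slc25a27 and Slc25a30 had mean levels between 1.65 and 2.22 FPKM.

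**Figure D4:**
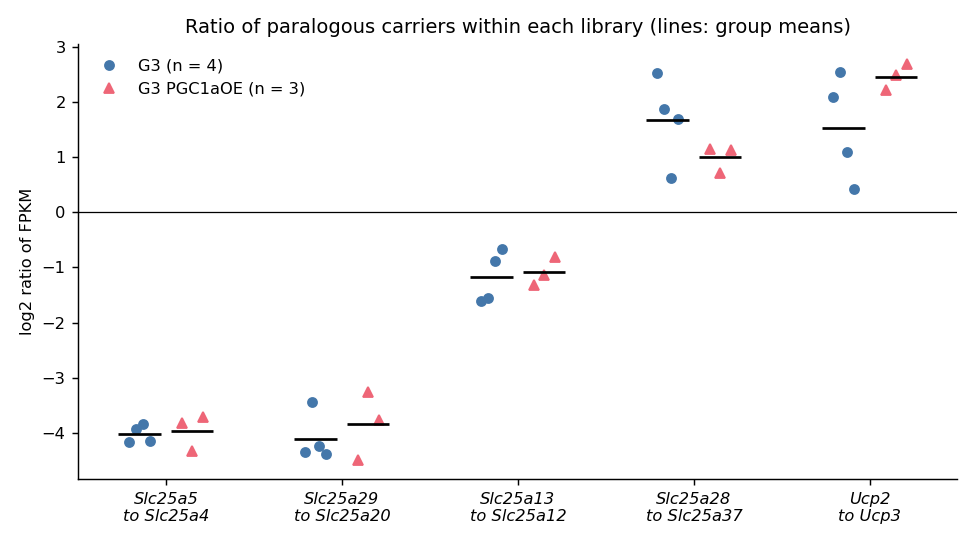
Log2 ratio of FPKM (vertical axis) of 5 pairs of paralogous carriers (horizontal axis), with a circle for each G3 library, a triangle for each library labelled G3 PGC1aOE and a line for each group mean. Group ranges overlap in all 5 pairs, and the group means of Ucp2 to Ucp3 lie farthest apart, by 0.92.

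The aspartate/glutamate carriers, which drive the malate-aspartate shuttle, were led by Slc25a12 (aralar, ENSMUSG00000027010). It measured 184, 192, 204 and 187 CPM in G3 and 160.2, 104 and 154 CPM in the libraries labelled G3 PGC1aOE. Every G3 library was above every other library, with the lowest value in G3 PGC1aOE 2. The mean was 192 ± 8.87 CPM in G3 and 139 ± 31.0 CPM in the other group (SD, n = 4 and n = 3), and the fitted log2 value was −0.46 ± 0.24 (SE; edgeR, interval −0.99 to 0.07, adjusted p = 0.847). Without G3 PGC1aOE 2 it was −0.29.

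Slc25a13 (citrin), the second aspartate/glutamate carrier, measured 57.0, 62.0, 104 and 112 CPM in G3 and 60.6, 44.8 and 83.1 CPM in the other group. As with Slc25a20, G3 3 and G3 4 stood highest and the groups overlapped. In the fit its log2 value was −0.41 ± 0.31 (SE), and it was −0.22 without G3 PGC1aOE 2 and −0.67 without G3 PGC1aOE 3. The log2 ratio of Slc25a13 to Slc25a12 differed between the groups by 0.09 (exact permutation p = 0.8, adjusted p = 0.8).

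Slc25a45, an amino acid carrier of low level, was the member of smallest p. It measured 3.37, 3.55, 2.87 and 3.98 CPM in G3 and 3.88, 8.74 and 5.45 CPM in the libraries labelled G3 PGC1aOE, so that G3 PGC1aOE 1 lay among the G3 libraries. The fitted difference was 0.80 ± 0.31 (SE; edgeR, lower bound of the 95% interval 0.11, unadjusted p = 0.0274, adjusted p = 0.847). It fell to 0.44 without G3 PGC1aOE 2 and to 0.53 with the code number in the fit (unadjusted p = 0.134, edgeR).

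Slc25a47, known from liver, rested on 1 library in the same way. It measured 2.74, 2.66, 2.96 and 3.08 CPM in G3 and 1.47, 7.35 and 4.05 CPM in the other group. Its log2 fold change of 0.59 ± 0.45 (SE) was −0.05 without G3 PGC1aOE 2, 0.02 with the code number in the fit and 0.99 without G3 PGC1aOE 1. Over the 8 expressed members grouped here as amino acid carriers, 6 fitted values were lower and 2 higher, with a median of −0.15, and 0 passed adjustment. This group includes Slc25a47 and leaves out Slc25a29, which was placed with Slc25a20.

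Among the di- and tricarboxylate carriers, Slc25a11 (ENSMUSG00000014606) measured 333, 388, 454 and 495 CPM in G3 and 326, 452 and 433 CPM in the other group. Replicate 1 was the lowest of each group, as for Slc25a3, and the log2 fold change was −0.05 ± 0.26 (SE; interval −0.62 to 0.52). Slc25a34, a little-studied member of this branch, measured 111, 132, 220.0 and 227 CPM against 111, 155 and 108 CPM. G3 3 and G3 4 again stood apart from the other 5 libraries. Its fitted difference was −0.47 ± 0.31 (SE), and it was −0.31 without G3 4.

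Slc25a1, the citrate carrier that exports citrate for lipid synthesis, was low at 5.84, 6.43, 4.22 and 5.49 CPM in G3 and 7.22, 7.21 and 6.26 CPM in the other group. Only G3 2 reached into the range of the other group. On the log2 scale the difference was 0.33 ± 0.24 (SE), and it was 0.20 without G3 3. Of 5 expressed members of this branch, 2 were lower and 3 higher, with a median of 0.01.

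The iron and glutathione carriers were led by Slc25a39, which imports glutathione. It measured 71.5, 70.4, 101 and 93.4 CPM in G3 and 65.4, 115 and 86.2 CPM in the libraries labelled G3 PGC1aOE, a log2 fold change of 0.08 ± 0.26 (SE). The groups overlapped, with the highest and the lowest library both under the overexpression label. Without G3 PGC1aOE 2 the value was −0.15 and without G3 PGC1aOE 1 it was 0.25.

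Of the mitoferrins, which import iron, Slc25a28 measured 41.9, 39.4, 22.8 and 27.4 CPM in G3 and 27.4, 26.1 and 23.5 CPM in the other group. G3 1 and G3 2 were high and the other 5 libraries close together. This gave a log2 difference of −0.36 ± 0.25 (SE), and it was −0.22 without G3 1. Its ratio to Slc25a37, the mitoferrin of erythroid cells, was 1.53 to 5.74 in FPKM, and the log2 ratio differed between the groups by −0.68 (exact permutation p = 0.257, adjusted p = 0.643), and by −0.40 without G3 1. The 5 erythroid markers, all detected, summed to between 110 and 1613 CPM in G3 and between 340 and 1124 CPM in the other group. Slc25a37 itself was highest in G3 PGC1aOE 2 at 33.3 CPM and in G3 3 at 31.1 CPM, and the part of erythroid RNA in this was not tested.

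Carriers of nucleotides, NAD and vitamin cofactors were led by Slc25a51, which imports NAD. It measured 50.2, 50.3, 58.2 and 55.4 CPM in G3 and 48.1, 41.4 and 45.9 CPM in the libraries labelled G3 PGC1aOE. The groups did not overlap, but the lowest G3 library, at 50.2 CPM, lay close to the highest of the others, at 48.1 CPM. The fold change on the log2 scale was −0.25 ± 0.19 (SE; interval −0.66 to 0.17). Of 6 expressed members of this branch, 3 were lower and 3 higher, with a median of −0.06.

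Among the ATP-Mg/phosphate carriers and their relatives, Slc25a23 had the highest mean FPKM by the deposited lengths, at 29.8, against 19.5 for the coenzyme A carrier Slc25a42. With the longest GENCODE M21 transcripts as lengths Slc25a42 was above it, at 16.7 against 12.7 FPKM. Slc25a23 measured 38.4, 47.6, 42.9 and 40.5 CPM in G3 and 47.7, 42.4 and 37.3 CPM in the other group. It varied by only 9.64% over the 7 libraries, the least of the expressed members, and its log2 fold change was 0.0044 ± 0.19 (SE). Slc25a24, a second calcium-regulated ATP-Mg carrier, measured 7.75, 6.06, 5.47 and 5.41 CPM against 7.14, 7.21 and 10.2 CPM. The gene's log2 difference was 0.41 ± 0.25 (SE), and it was 0.22 without G3 PGC1aOE 3.

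Slc25a16, linked to coenzyme A transport, had the lowest fitted value of the family. It measured 24.3, 24.8, 23.0 and 29.99 CPM in G3 and 20.6, 7.43 and 24.0 CPM in the libraries labelled G3 PGC1aOE, so that 1 library, G3 PGC1aOE 2, stood far below the rest. The fitted difference was −0.56 ± 0.34 (SE), it was −0.19 without that library and −0.87 without G3 PGC1aOE 3. Slc25a46, a protein of the outer membrane that takes part in mitochondrial fission, measured 45.5, 39.5, 70.4 and 33.8 CPM against 44.1, 30.8 and 38.5 CPM. It was highest in G3 3, and its log2 fold change of −0.32 ± 0.27 (SE) was −0.08 without that library.

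**Figure D5:**
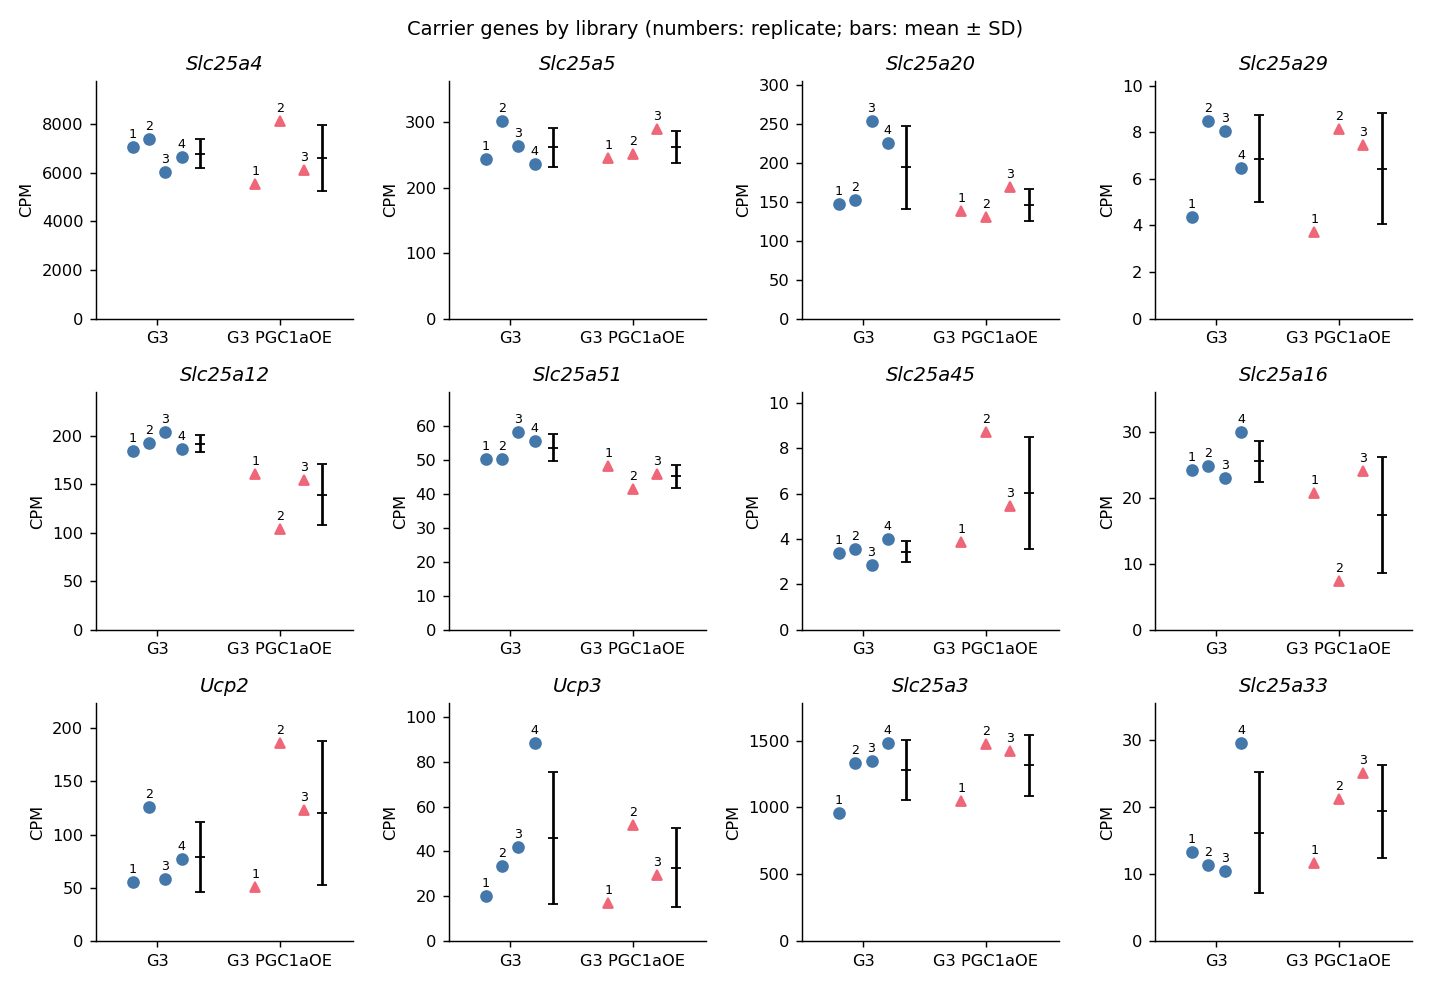
CPM (vertical axes, each from 0) of 12 carrier genes by group (horizontal axes), with a point for each library, numbered by replicate, and bars for the mean ± SD (n = 4 and n = 3). Slc25a12 and Slc25a51 do not overlap between groups, while the low mean of Slc25a16 and the high mean of Slc25a45 follow G3 PGC1aOE 2, at 7.43 and 8.74 CPM.

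The 8 members below 1 CPM were Slc25a31, Slc25a43, Slc25a18, Slc25a2, Slc25a21, Slc25a41, Slc25a48 and Slc25a54. Slc25a48 and Slc25a54 had 0 counts in all 7 libraries, which allows up to 0.033 CPM (3 counts of the 89985656 in all libraries). The means of the other 6 ran from 0.031 to 0.50 CPM. None of the 8 was tested for a group difference.

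Genes outside the family that serve the same traffic also gave no call. Of 7 carnitine shuttle genes tested, 4 had lower and 3 had higher fitted values, and their median was −0.15 on the log2 scale. The carnitine acetyltransferase gene Crat (213 FPKM) and Cpt2 (121 FPKM), the inner membrane acyltransferase, were highest, at −0.15 ± 0.30 (SE) and 0.09 ± 0.42 (SE). Smallest p values belonged to Cpt1c, a brain form of low level, at 0.70 ± 0.36 (SE), and to Cpt1a, the liver form of the outer membrane enzyme, at −0.33 ± 0.25 (SE).

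Of 21 other inner membrane transporters and channels tested, 9 were lower and 12 higher, with a median of 0.02. At an unadjusted p under 0.05 (edgeR) stood 1 of these 21, against 4.32% of all tested genes. This was Nnt, the proton-driven transhydrogenase that makes NADPH. It measured 708, 582, 444 and 428 CPM in G3 and 376, 141 and 269 CPM in the libraries labelled G3 PGC1aOE. The groups did not overlap, as was so on the lower side for 2.39% of all tested genes. In the fit its log2 value was −1.04 ± 0.36 (SE; edgeR, adjusted p = 0.847). The highest of this list were Mpc1, a subunit of the pyruvate carrier, at 564 FPKM and a log2 fold change of 0.18 ± 0.28 (SE), and Smdt1, a subunit of the calcium uniporter, at 278 FPKM and 0.36 ± 0.36 (SE). Sfxn2, second in p, had −0.42 ± 0.27 (SE).

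In the outer membrane the pore genes Vdac1 (846 FPKM) and Vdac2 (422 FPKM) were highest, at −0.18 ± 0.25 (SE) and 0.09 ± 0.23 (SE). Tspo, a cholesterol-binding protein, had 0.56 ± 0.28 (SE) and Mtch1, an outer membrane relative of the carriers, 0.28 ± 0.25 (SE). Of these 6 genes 2 were lower and 4 higher. Among 7 tested partners of the adenine nucleotide carrier, the ATP synthase genes Atp5b (4924 FPKM) and Atp5a1 (2264 FPKM) had −0.13 ± 0.26 and −0.24 ± 0.26 (SE). Atp5o and Hk2 had 0.49 ± 0.34 and −0.46 ± 0.36 (SE). The CPM of Atp5a1 was lower in all 3 libraries labelled G3 PGC1aOE than in G3, against 2.39% of all tested genes lower in this way. Of the 7, 4 were lower and 3 higher, with 0 at an unadjusted p under 0.05.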

How the data were processed

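RNA of 7 left ventricle samples was sequenced after Trizol extraction and an Illumina TruSeq RNA preparation, per the labels' protocols. Bowtie 0.12.2, CASAVA and the mm9 build are named in the submitters' processing notes, without their roles. For the counting program, annotation and ambiguous reads, the method is not given in the sources used here. The authors deposited whole-number counts per gene and FPKM. Those FPKM were used here as deposited. The gene length behind them was solved from the deposited counts, the column total and the FPKM, and was equal across samples within 0.0023 bp. Symbols were found for 21748 of 22027 identifiers.

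Counts were tested here with edgeR 4.0.16 in R 4.3.3 (quasi-likelihood, robust, TMM, filterByExpr, group as the only term, two-sided), and p-values were adjusted by Benjamini-Hochberg over the 12674 genes kept. The script was tested on simulated data. DESeq2 1.42.0 and limma 3.58.1 were alternatives. FPKM alternatives used pseudocounts of 1 and 0.1. Ratios used an exact permutation test. Members, gene lists, role groups and the naming rule were chosen with earlier results of these data known. Named members are the adenine nucleotide and acylcarnitine carriers, Ucp2 and Ucp3, the 10 of highest FPKM, the highest of each role, and the 5 of smallest p per direction. Among related genes, the 2 of smallest p and the 2 of highest FPKM of each list are named. Members outside this rule were named after their values were seen: Slc25a30, Slc25a37, Slc25a14, Slc25a27, Slc25a32, Slc25a33, Slc25a42, Slc25a53 and those below 1 CPM. Columns were matched to samples by the code in the description.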

Additional observations from a re-analysis of the deposited data

Results flagged for a closer look

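Within the 4 G3 libraries, 2 of the 42 members examined had 1 library far from the other 3, and chance flags about 1 in 20 such groups. Slc25a33, a pyrimidine nucleotide carrier, measured 29.6 CPM in G3 4 against 13.3, 11.3 and 10.4 CPM in G3 1 to 3, a gap of 0.85 of the whole range. The libraries labelled G3 PGC1aOE measured 11.7, 21.2 and 25.2 CPM, so G3 4 is also the highest of all 7. Slc25a31, the germ cell adenine nucleotide carrier, measured 1.95 CPM in G3 4 against 0.27, 0.22 and 0.27 CPM, a gap of 0.97 of the range, from 26 counts against 3, 3 and 3.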

How the results depend on the processing

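With 4 and 3 libraries, SEs of the members ran from 0.19 to 0.51, and the smallest adjusted p of all tested genes was 0.847 (edgeR). Differences beyond 2-fold could therefore be missed as well as smaller ones, and Nnt, with a fitted value beyond 2-fold, did not pass. DESeq2 called 3 genes and the replicate block 6, against 0, and members called stayed at 0 under every setting run. Of 399 values of 21 named members under alternatives, 355 had the same direction and 44 the opposite sign, and the cause was not tested.

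Signs turned for members near 0. RLE scaling gave −0.0010 for Slc25a5 and −0.0016 for Slc25a23, DESeq2 −0.0011 and −0.0019, and no filter −0.017 and −0.016. Upper quartile scaling gave 0.0038 for Slc25a4 and a member median of 0.029, and leaving out mitochondrially encoded genes a median of 0.0018. Limma voom gave −0.092 for Slc25a23. With log2(FPKM + 1), Slc25a3, Slc25a5, Slc25a39 and Slc25a23 were at −0.077, −0.11, −0.055 and −0.11, and with log2(FPKM + 0.1) at −0.077, −0.11, −0.056 and −0.11, where the median of all genes shifted by −0.11. A covariate for the text of the sample code gave −0.031 for Slc25a3 and −0.016 for Slc25a5, and one for its number −0.13 for Slc25a3 and −0.11 for Slc25a39. The latter also moved, without a change of sign, Ucp3 to −1.01, Ucp2 to 0.14, Slc25a47 to 0.015, Slc25a45 to 0.53, Slc25a46 to −0.11, Slc25a29 to −0.33, Slc25a11 to −0.21 and Slc25a4 to −0.11.

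Without each library in turn, log2 fold changes ranged from −0.22 to 0.068 for Slc25a4, −0.079 to 0.17 for Slc25a3, −0.078 to 0.082 for Slc25a5, −0.14 to 0.080 for Slc25a11, −0.091 to 0.087 for Slc25a23, −0.30 to 0.18 for Slc25a29, −0.15 to 0.25 for Slc25a39, −0.046 to 0.99 for Slc25a47 and −0.99 to 0.042 for Ucp3. The member median ranged from −0.074 to 0.0057, and the number of members at an unadjusted p under 0.05 from 0 to 4. Differences in log2 ratio ranged from −0.059 to 0.25 for Slc25a5 to Slc25a4, −0.026 to 0.58 for Slc25a29 to Slc25a20 and −0.054 to 0.26 for Slc25a13 to Slc25a12. The share of Slc25a4 in the family ranged from 62.2% to 64.0%, and was 66.6% with the longest GENCODE M21 transcript as length, an alternative chosen after seeing the data.

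The replicate numbers were not shown to pair the samples: deviations of same-numbered libraries correlated at 0.46, 0.12 and −0.09. The replicate block gave 0.041 for Slc25a11, −0.042 for Slc25a5 and −0.018 for Slc25a23, and called 6 genes and 0 members.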

Other observations

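The highest value of many carrier genes lay in 2 G3 libraries. Of the 41 expressed members, 9 were highest in G3 3 and 11 in G3 4, together 48.8%, where 24.5% of all tested genes were highest in either library. Slc25a42, a coenzyme A carrier, shows the pattern at 28.6, 56.1, 72.2 and 84.6 CPM in G3 and 35.5, 52.1 and 47.3 CPM in the libraries labelled G3 PGC1aOE. Conversely, G3 1 was the lowest library for 11 of the 41 members, a position it held for 13.8% of all tested genes. G3 3, G3 4 and G3 1 were picked as the libraries with the most such members, so the excess over all genes is raised by that choice. These shares describe 7 libraries and carry no test.

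G3 PGC1aOE 2 was the highest library for 8 members and the lowest for 10, and it held those positions for 26.2% and 27.2% of all tested genes. Low values there include Slc25a32, a folate carrier, at 1.89 CPM where the other libraries lay between 5.32 and 7.18 CPM, and Slc25a30 at 1.75 CPM where the others lay between 3.26 and 5.47 CPM.

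The order of mean levels below the first 4 genes depends on the gene length that the authors used. The deposited length of Slc25a12 is 1671 bp, or 26.3% of its longest GENCODE M21 transcript, and that of Ucp2 is 1204 bp, or 30.2%. With the longest transcript as length, Slc25a12 moves from rank 5 to 8 and Ucp2 from 8 to 10, while Slc25a20 moves from 6 to 5 and Slc25a34 from 9 to 6. By mean FPKM the first 4 ranks are the same under both lengths. With the longest transcript, Slc25a11 (239 FPKM) and Slc25a5 (212 FPKM) lie close, and their order does not hold in every library.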
